A study of Manis javanica with 3 samples.

Results

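The circadian clock genes described here were the genes of the Malayan pangolin (*Manis javanica*) whose Swiss-Prot entry in the deposited annotation carries the symbol PER1, PER2, PER3, CRY1, CRY2, ARNTL, CLOCK, NPAS2, DBP or CIART. The choice of these 10 symbols took 13 genes out of 24220. They stood under only 4 of the symbols, ARNTL, CLOCK, CRY1 and DBP. For 7 of the 13 genes the KEGG entry named a related gene in place of the Swiss-Prot symbol, and for 6 it named the same gene. By their KEGG entries, PER1, PER2 and PER3 were listed under ARNTL, NPAS2 under CLOCK, CRY2 under CRY1, and TEF and HLF under DBP. The names by KEGG entry are used throughout, and with them 9 of the 10 symbols were present, while no gene was matched to CIART, which was not analysed here. TEF and HLF are not among the 10 symbols and entered through the symbol DBP.

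The clock of mammalian cells is a loop of transcription factors. A dimer of ARNTL (also called BMAL1) with CLOCK, or with its relative NPAS2, activates genes that carry E-box sequences, among them the PER and CRY genes, and the PER and CRY proteins return to the nucleus and repress that dimer. A further loop of REV-ERB repressors and ROR activators acts on ARNTL, and the factors DBP, TEF and HLF activate genes with D-box sequences, where NFIL3 represses them. Nearly every tissue runs this loop, and in liver and gut it drives daily rhythms of metabolism and secretion.

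All RNA came from 1 wild adult female that died while under rescue care, and its liver, small intestine and salivary glands were sampled, with no treatment or genotype labelled. Polyadenylated RNA of each tissue was sequenced on an Illumina HiSeq instrument as 1 library per tissue, so none of the differences between tissues below has a replicate check. The summed counts were 14568778 for liver, 10158924 for small intestine and 8318686 for salivary glands. The hour of death is not given in the sources used here, so the levels cannot be placed on the daily cycle, and a difference in the level of a gene between tissues and a difference in the phase of its rhythm cannot be told apart. In such bulk samples, fewer cells of a type and less RNA per cell also cannot be told apart.

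Marker genes did not follow every label. In the library labelled small intestine all 13 genes found for the gastric list lay above an FPKM of 1, with a sum of 71167, against sums of 61.6 for salivary glands and 2.53 for liver. FPKM is the number of fragments on a gene per kilobase of its length, scaled to a common number of mapped fragments. The deposited FPKM did not follow from the deposited counts and lengths by 1 factor per library. In liver PER2 had more counts per base than DBP (553 over 7401 against 81 over 1324) but a lower FPKM (4.49 against 8.19). Comparisons of FPKM between genes carry this adjustment, and the intervals given below leave it out. In the library labelled small intestine only 1 of 9 enterocyte genes (VIL1) was above 1, and FABP2, LCT and CDX1 were listed at 0. VIL1 had similar levels in small intestine, salivary glands and liver (24.0, 25.7 and 21.2), and FABP2 and LCT were at 0 in each library. The enterocyte list had its highest sum in liver, at 64.3 with 4 genes above 1, against 25.9 for small intestine and 26.7 for salivary glands. The smooth muscle genes were highest in the library labelled small intestine. Their sum over 5 genes was 3039 there, against 239 for salivary glands and 27.5 for liver, although ACTG2 was listed at 0 in each. The liver library held all 9 hepatocyte genes above 1, with a sum of 15558, of which FGB alone gave 12822. The sum was 135.3 for small intestine, with 4 genes above 1, and 124.7 for salivary glands, with 3 above 1. The salivary gland list gave 5 genes from 10 symbols, of which 3 were above 1 in each library. The salivary gland library had the highest AQP5 (94.3), whereas LPO was at 0.175 and BPIFA1 was listed at 0. PIGR was at 20.8 in salivary glands and 19.5 in liver, and KLK1 was highest in liver (2.83 against 2.27 in salivary glands). The median of the list was also highest in liver, at 2.83 against 2.27 for salivary glands. The part of gastric and smooth muscle cells in the values of the library labelled small intestine was not tested.

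Of the 13 genes, 11 were above an FPKM of 1 in each library. Among all genes, the shares above 1 were 59.4% for small intestine, 56.3% for salivary glands and 57.0% for liver. The remaining members were short second entries. A second ARNTL gene (gene13674, 933 bases) had a count of 0 in each library, which allows up to 3 counts in each. A second CLOCK gene (gene16605, 507 bases) had a count of 2 in small intestine, 3 in salivary glands and 1 in liver. Neither entered a comparison, and ARNTL and CLOCK below are the longer genes (gene14915 and gene10236).

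Libraries were compared by the log2 ratio of CPM, counts scaled to a common library size, after TMM. TMM sets its factors on the assumption that most genes are level. A gene with at least 10 counts in one of the libraries of a pair was called higher or lower from an absolute log2 ratio of 1. The bracketed ranges are 95% intervals that cover counting error only. In every pair 11 clock genes were compared, and the lowest count among them was 58. Between liver and salivary glands 4 of 11 were called, while the call took 47.9% of all 17162 genes compared. Between liver and small intestine 4 of 11 were called, against 48.5% of all 17399 genes. Between salivary glands and small intestine 5 of 11 were called, against 37.6% of all 16519 genes. TEF and NPAS2 were called in all 3 pairs, and PER1, PER3, CRY1, CLOCK and HLF in none.

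**Figure D1:**
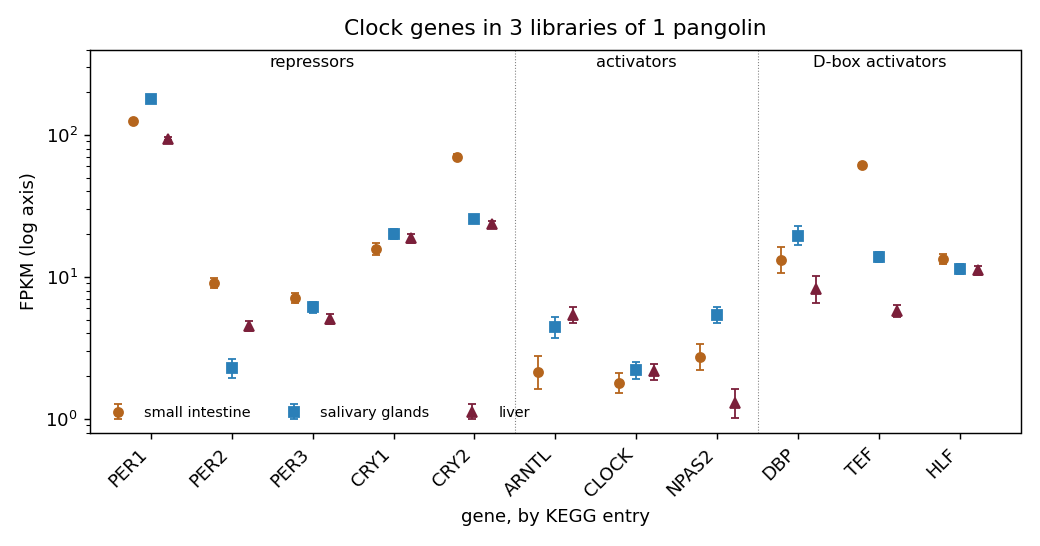
FPKM (log axis) of the 11 clock genes with counts of at least 10 in each library, grouped into repressors, activators and D-box activators. Points are single libraries and bars are 95% exact Poisson intervals of the count. PER1 stood highest in each library, ARNTL, CLOCK and NPAS2 lay between 1.30 and 5.39, and TEF spread from 5.78 to 61.3.

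The repressor arm was led by PER1. PER1 (gene20407, scaffold NW_016547352.1, bases 274242 to 289185, plus strand) had an FPKM of 125.3 in small intestine, 180.7 in salivary glands and 94.5 in liver. It had the highest FPKM of the clock genes in every library, and stood at percentile 97.6, 98.3 and 94.8 among genes above an FPKM of 1, in the same order. The log2 ratio of liver to salivary glands was -0.99 (-1.03 to -0.95), just short of the call, and it was -1.06 with upper quartile scaling and -1.20 with library size alone. The ratio of salivary glands to small intestine was 0.80, or 1.25 with library size alone, where it would be called. PER1 is both a part of the loop and a gene that hormones and cAMP signals induce directly.

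PER2, which shares the repressor role, ran against PER1 in the pairs with salivary glands. For liver to small intestine both were lower in liver and neither was called, with log2 ratios of -0.83 for PER2 and -0.19 for PER1. From FPKM the ratio of PER2 was -1.01, where it would be called, and with library size alone that of PER1 was 0.05. PER2 (gene18167, scaffold NW_016542969.1, bases 524433 to 563311, plus strand) had an FPKM of 9.06 in small intestine, 2.27 in salivary glands and 4.49 in liver, so the tissue with the highest PER1 had the lowest PER2. The log2 ratio of salivary glands to small intestine was -1.85 (-2.10 to -1.61) and was called. Liver stood above salivary glands by a log2 ratio of 1.02 (0.78 to 1.27), which was called, though it was 0.80 with library size alone, 0.95 with upper quartile scaling and 0.99 from FPKM, and so was not called under any of these. Within a library, where no scaling between libraries enters, the FPKM of PER1 was 13.8 times that of PER2 in small intestine, 79.6 times in salivary glands and 21.0 times in liver.

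PER3 and CRY1 were the most level repressors. PER3 (gene7450) had an FPKM of 7.10, 6.11 and 5.07 in small intestine, salivary glands and liver, with a highest level 1.40 times the lowest. CRY1 (gene11800) had 15.8, 20.0 and 18.7 in the same order, with a highest level 1.27 times the lowest. The log2 ratio nearest to a call was -0.89 for PER3 between liver and small intestine. The last 1228 bases of the span of PER3 overlap the gene of urotensin 2 (UTS2, gene7451) on the opposite strand, which had a count of 0 in each library. The counting is not stated to use strand.

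CRY2 set the small intestine library apart among the repressors. CRY2 (gene12743, scaffold NW_016536252.1, bases 41639 to 94968, plus strand) had an FPKM of 70.4 in small intestine, 25.7 in salivary glands and 23.4 in liver. The log2 ratio was -1.52 (-1.60 to -1.43) for liver to small intestine and -1.22 (-1.32 to -1.13) for salivary glands to small intestine, and both were called. With library size alone the latter was -0.77 and was not called. The FPKM of CRY2 was 4.47 times that of CRY1 (4.01 to 4.97) in small intestine, against 1.29 times (1.16 to 1.42) in salivary glands and 1.25 times (1.15 to 1.37) in liver. The span of CRY2 shares 704 bases with gene12745 on the opposite strand, which had counts of 129, 115 and 19 beside 2847, 1370 and 1685 for CRY2.

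The activators together stood below the repressors together in every tissue, though PER2 lay below ARNTL and NPAS2 in salivary glands, and PER2 and PER3 lay below ARNTL in liver with overlapping intervals. ARNTL (gene14915, scaffold NW_016538465.1, bases 16464 to 118704, minus strand) had an FPKM of 2.14 (1.62 to 2.76) in small intestine, 4.43 (3.73 to 5.22) in salivary glands and 5.39 (4.72 to 6.13) in liver. Small intestine lay below the other libraries, with log2 ratios of 1.25 (0.83 to 1.69) for liver and 1.11 (0.66 to 1.58) for salivary glands over it, both called. Liver and salivary glands did not differ beyond counting error, at a log2 ratio of 0.13 (-0.17 to 0.45). ARNTL was thus lowest in the library where CRY2, PER2 and TEF were highest, as were PER3 and HLF, which were called in no pair. By FPKM, PER1, CRY1, CLOCK, NPAS2 and DBP were instead highest in salivary glands. Like ARNTL, CRY1 and CLOCK were lowest in small intestine by FPKM.

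CLOCK and NPAS2 are alternative partners of ARNTL, and they behaved differently. CLOCK (gene10236) had an FPKM of 1.79, 2.19 and 2.16 in small intestine, salivary glands and liver, with a highest level 1.22 times the lowest. NPAS2 (gene16254, scaffold NW_016540197.1, bases 73358 to 217602, plus strand) had 2.74, 5.37 and 1.30 in the same order. Salivary glands were highest for NPAS2, and liver was lowest.

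The log2 ratio of NPAS2 was -2.24 (-2.64 to -1.86) for liver to salivary glands, the largest absolute ratio of any clock gene in that pair. It was 1.15 (0.80 to 1.51) for salivary glands to small intestine and 0.97 from FPKM, where it would not be called. For liver to small intestine it was -1.09 (-1.55 to -0.63), or -0.85 with library size alone, where it would not be called. The FPKM of NPAS2 was 1.53 times that of CLOCK (1.18 to 1.98) in small intestine and 2.45 times (2.02 to 2.96) in salivary glands. In liver it was 0.603 times (0.464 to 0.784), so by FPKM the order of the partners turned over there. By counts per base of the listed length the gap in liver was narrower, with 74 counts over 4024 bases for NPAS2 and 232 over 10383 for CLOCK. The interval does not cover this dependence on the measure.

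Among the D-box activators, TEF set the small intestine library apart. TEF (gene11263, scaffold NW_016534960.1, bases 259382 to 280568, minus strand) had an FPKM of 61.3 in small intestine, 13.8 in salivary glands and 5.78 in liver. Its level was 9.44-fold higher in small intestine than in liver by scaled CPM, with a log2 ratio of -3.24 (-3.39 to -3.09) for liver to small intestine. The ratio was -2.01 (-2.14 to -1.89) for salivary glands to small intestine and -1.23 (-1.41 to -1.05) for liver to salivary glands. These were the largest absolute ratios of any clock gene in the pairs with small intestine, and all were called on every scale tried.

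DBP (gene524, scaffold NW_016527544.1, bases 33831 to 39391, minus strand), a direct target of the ARNTL and CLOCK dimer, had an FPKM of 13.2 in small intestine, 19.6 in salivary glands and 8.19 in liver. It was called lower in liver than in salivary glands, with a log2 ratio of -1.56 (-1.97 to -1.17). For salivary glands to small intestine the ratio was 0.64, or 1.09 with library size alone, where it would be called. HLF (gene2347) had an FPKM of 13.4, 11.3 and 11.1 in small intestine, salivary glands and liver, and its highest FPKM was 1.21 times the lowest. By scaled CPM its largest absolute log2 ratio was 0.57, against 0.35 for CLOCK and 0.36 for CRY1. The FPKM of TEF was 4.65 times that of DBP (3.77 to 5.73) in small intestine. It was 0.704 times (0.593 to 0.837) in salivary glands and 0.705 times (0.556 to 0.894) in liver. Counts per base of the listed length placed TEF above DBP in every library. In salivary glands TEF had 677 counts over 4331 bases and DBP 159 over 1324, and in liver the counts were 435 and 81. The order of TEF and DBP in these libraries thus depends on the adjustment in FPKM.

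**Figure D2:**
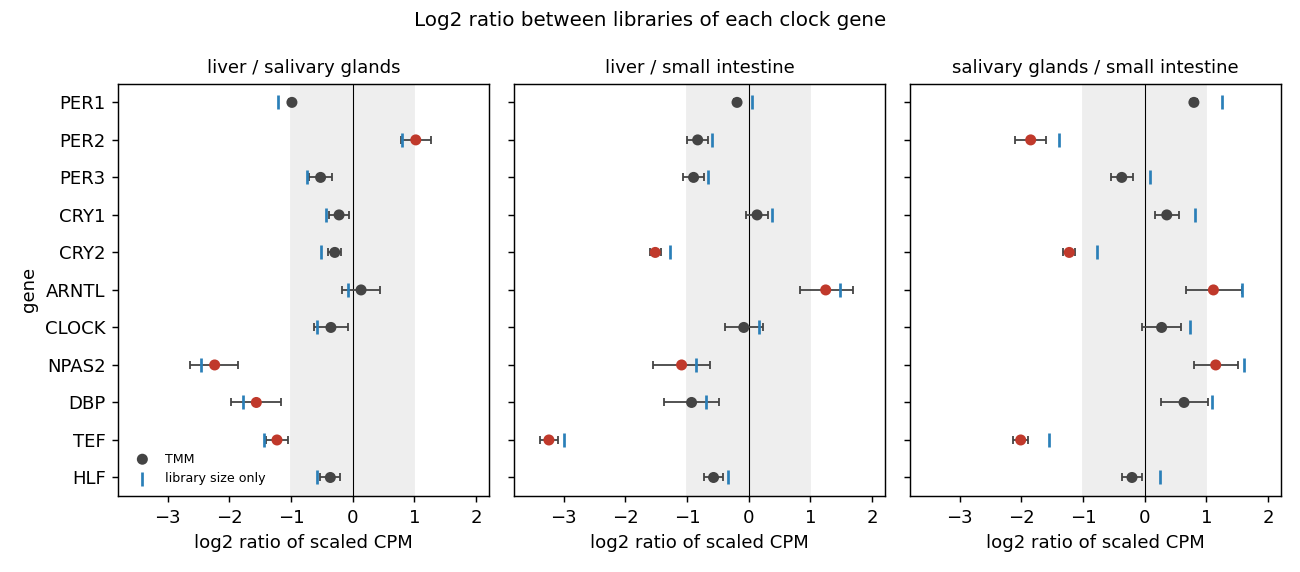
Log2 ratio of scaled CPM between libraries for the 11 clock genes, 1 panel per pair. Circles are TMM ratios with 95% intervals for counting error, red where called, bars in blue are the ratios with library size alone, and the grey band is an absolute log2 ratio below 1. TEF lies farthest from 0 in both pairs with small intestine, at -3.24 and -2.01, and NPAS2 in liver to salivary glands, at -2.24.

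In each pair with liver, 3 of the 4 called clock genes were lower in liver. Between liver and salivary glands 1 clock gene was called higher in liver (PER2) and 3 lower (NPAS2, DBP, TEF), while 24.9% of all genes were called higher in liver and 22.9% lower. The split was 0 higher and 4 lower both with library size alone and with upper quartile scaling, and 0 higher and 3 lower from FPKM. Between liver and small intestine 1 was called higher (ARNTL) and 3 lower (CRY2, NPAS2, TEF), while each direction took 24.2% of all genes. Here the split was 1 higher and 2 lower with library size alone, and 1 higher and 4 lower from FPKM. The median log2 ratio of the 11 genes was -0.36 and -0.83 in these pairs, beside 0.07 and 0.08 over all genes.

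Between salivary glands and small intestine 2 clock genes were called higher in salivary glands (ARNTL, NPAS2) and 3 lower (PER2, CRY2, TEF), while 16.9% of all genes were called higher and 20.6% lower. With library size alone the split was 4 higher and 2 lower, and from FPKM it was 1 higher and 3 lower. The median log2 ratio of the 11 genes was 0.27, beside 0.02 over all genes. Library size alone shifts every log2 ratio by 0.46 in this pair, by 0.24 for liver to small intestine and by -0.22 for liver to salivary glands. The median absolute log2 ratio of the clock genes was 0.52, 0.89 and 0.80 in the pairs in the order given, beside 0.94, 0.95 and 0.69 over all genes.

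By FPKM, the order of the clock genes began with PER1 and CRY2 in each library. In small intestine TEF came next, then CRY1, HLF and DBP, whose neighbouring intervals overlapped, then PER2 and PER3, and last NPAS2, ARNTL and CLOCK, whose neighbouring intervals overlapped. In salivary glands CRY1 and DBP came next with overlapping intervals, then TEF and HLF, then PER3, NPAS2 and ARNTL, each overlapping the next, and last PER2 and CLOCK, which could not be separated. In liver CRY1, HLF and DBP came next, then TEF, ARNTL, PER3 and PER2, each overlapping the next, then CLOCK and NPAS2. PER2 thus moved from above PER3 in small intestine to the foot of the order in salivary glands, and NPAS2 took the last place in liver.

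The balance of the arms was compared by ratios of FPKM within each library, which no scaling between libraries can change. The adjustment of single genes in FPKM still enters them. These ratios were chosen after the values of the genes were seen. The summed PER and CRY genes stood 34.1 times above the summed ARNTL, CLOCK and NPAS2 genes in small intestine (30.1 to 38.7), 19.6 times in salivary glands (17.9 to 21.4) and 16.5 times in liver (15.1 to 18.1). Without PER1 the ratios were 15.3 (13.5 to 17.4), 4.52 (4.10 to 4.98) and 5.85 (5.30 to 6.45), so small intestine kept the highest ratio, while salivary glands and liver exchanged places. PER1 stood 58.7, 40.8 and 17.5 times above ARNTL, and PER2 4.24, 0.513 and 0.834 times, in the order small intestine, salivary glands and liver.

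**Figure D3:**
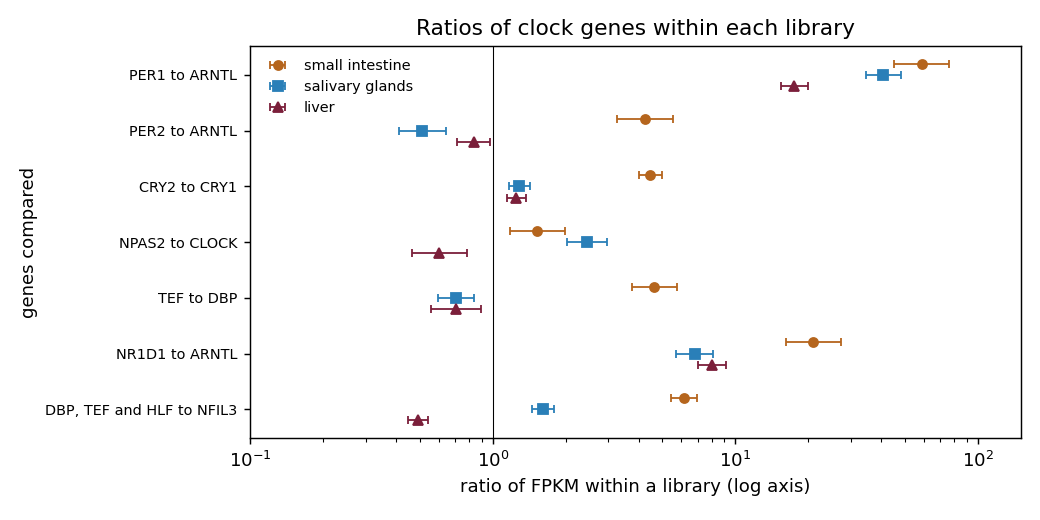
Ratio of FPKM between clock genes within each library (log axis), for the pairs and groups named on the vertical axis. Points are single libraries, bars are 95% intervals for counting error, and the vertical line marks equal levels. Small intestine holds the highest value of each plotted row except NPAS2 to CLOCK, highest in salivary glands at 2.45, and PER1 to PER2, which is not plotted, was also highest in salivary glands at 79.6.

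The wider machinery of the clock was taken from lists of 66 symbols, of which TEF and HLF are counted above and ARNTL2 and PRKAG1 had no entry. KEGG or NR entries gave 68 genes. Of these, 7 were called higher in liver than in salivary glands and 12 lower (28.8% of 66 compared), 7 higher in liver than in small intestine and 5 lower (17.9% of 67), and 9 higher in salivary glands than in small intestine and 7 lower (24.2% of 66). These shares stood below those of all genes given above, though the sets were not matched by count level. With library size alone the last 2 splits were 10 higher and 4 lower, and 13 higher and 4 lower. From FPKM they were 8 and 8, and 5 and 7.

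In the loop that acts on ARNTL, the repressors NR1D1 and NR1D2 (REV-ERB alpha and beta) were called in no pair. NR1D1 had an FPKM of 44.9, 30.1 and 43.3 in small intestine, salivary glands and liver, and NR1D2 had 11.2, 9.37 and 12.1. The activator RORA, with 3.89, 4.95 and 3.06, was called lower in liver than in salivary glands at -1.14, although the ratio from FPKM was -0.69. RORB was barely counted, with counts of 13, 3 and 2. NR1D1 stood 21.0 times above ARNTL in small intestine (16.1 to 27.4), 6.80 times in salivary glands (5.69 to 8.12) and 8.03 times in liver (7.01 to 9.20). Since ARNTL is the denominator and NR1D1 was called in no pair, the high ratio in small intestine largely restates its low ARNTL.

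On the D-box side, the repressor NFIL3 had an FPKM of 14.3 in small intestine, 27.8 in salivary glands and 51.0 in liver, the reverse of the order of TEF. It was called higher in liver and in salivary glands than in small intestine, with log2 ratios of 1.72 and 1.03, the latter being 0.96 from FPKM. The summed activators DBP, TEF and HLF stood 6.14 times above NFIL3 in small intestine (5.43 to 6.95), 1.61 times in salivary glands (1.45 to 1.79) and 0.492 times in liver (0.447 to 0.541). Taken singly, TEF in small intestine was the only activator above NFIL3 in any library. The ratio of DBP alone to NFIL3 kept the order, with 0.921, 0.705 and 0.161, though the intervals of small intestine (0.728 to 1.17) and salivary glands (0.593 to 0.839) overlapped.

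Of the E-box repressors, BHLHE40 had an FPKM of 52.2, 42.8 and 94.1 in small intestine, salivary glands and liver and was called in no pair. Its log2 ratio of liver to salivary glands was 0.96, or 1.14 from FPKM, and that of liver to small intestine was 0.87, or 1.11 with library size alone, where each would be called. BHLHE41, with 3.35, 10.8 and 2.64, was called higher in salivary glands than in liver (log2 ratio -2.10 for liver to salivary glands) and than in small intestine (1.67). TIMELESS and its partner TIPIN were level, with 13.7, 14.1 and 15.1 for TIMELESS and 14.6, 12.5 and 18.5 for TIPIN.

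**Figure D4:**
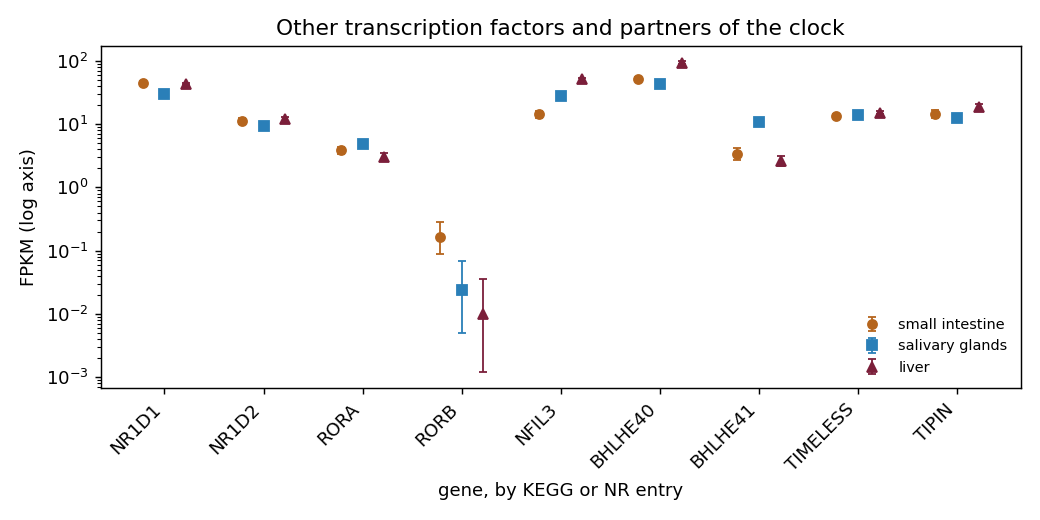
FPKM (log axis) in the 3 libraries of NR1D1, NR1D2, RORA, RORB, NFIL3, BHLHE40, BHLHE41, TIMELESS and TIPIN. Points are single libraries and bars are 95% exact Poisson intervals of the count. BHLHE41 was highest in salivary glands (10.8) and NFIL3 was highest in liver (51.0).

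Of the kinases and phosphatases that act on clock proteins, 3, 1 and 4 of 19 were called for liver to salivary glands, liver to small intestine and salivary glands to small intestine, or 15.8%, 5.26% and 21.1%, beside 47.9%, 48.5% and 37.6% of all genes. The largest ratio was that of PRKAB1, a regulatory subunit of AMP-activated kinase, with an FPKM of 29.4 in small intestine, 209.2 in salivary glands and 82.0 in liver. PRKAG2 (gene13330), another subunit of that kinase, was lowest in salivary glands, with 14.9, 3.53 and 16.2. Other PRKAG2 entries were thinly counted. By FPKM, gene16797 was highest in salivary glands, with 1.39, 1.64 and 1.29 on counts of 17, 25 and 27. The entry Manis_javanica_newGene_6038 (270 bases) had 22.8, 8.94 and 12.4 on counts of 14, 7 and 13. Of the ubiquitin ligases and proteases, 2 of 10, 2 of 10 and 0 of 9 were called in the same pairs, or 20.0%, 20.0% and 0.0%. USP2, a deubiquitinase known to act on clock proteins, was lower in liver than in both other tissues, with 32.6, 32.8 and 5.13, and FBXL21, a ligase for CRY proteins, had counts of 2, 0 and 19.

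Cofactors were called for 3, 2 and 4 of 16 genes in those pairs, or 18.8%, 12.5% and 25%, again beside 47.9%, 48.5% and 37.6% of all genes. The acetyltransferase gene KAT2B had an FPKM of 12.5, 20.6 and 5.83 in small intestine, salivary glands and liver, with the order that NPAS2 had. PPARGC1A, a coactivator of the ROR receptors, had 6.98, 1.39 and 4.42, with the order that PER2 had. Inputs and outputs of the clock were called for 8, 4 and 4 of 12 genes, or 66.7%, 33.3% and 33.3%, which is above the share of all genes in the pair of liver and salivary glands and below it in the others. PROX1, a homeobox factor of liver, had 0.404, 0.0541 and 24.8, and TSC22D3, which glucocorticoids induce, had 382.1, 348.2 and 52.4.

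For each clock gene, the most similar pattern over the 3 libraries was sought by the Euclidean distance of centred log2 scaled CPM. The search covered 72 clock genes and wider genes with at least 10 counts in every library. The nearest gene was CSNK2A2 for PER1 (distance 0.08), PPARGC1A for PER2 (0.34), CREBBP for PER3 (0.04), DDB1 for CRY1 (0.08) and another CREBBP gene (gene22489) for CRY2 (0.11). It was NFIL3 for ARNTL (0.42), PPP1CC for CLOCK (0.04), KAT2B for NPAS2 (0.03), CREB1 (gene8071) for DBP (0.11) and NCOR1 for HLF (0.07). These matches hold for the named entries only. Another CREB1 entry, Manis_javanica_newGene_7716, had a near level scaled CPM of 1.50, 1.54 and 1.50 in small intestine, salivary glands and liver. Its counts were 13, 15 and 22. For TEF the nearest was CRY2, at a distance of 1.22, so none of the genes searched came close to its pattern. RORB, left out by the count minimum, was highest in small intestine, as TEF was. Its scaled CPM was 1.50 in small intestine, 0.309 in salivary glands and 0.137 in liver, on counts of 13, 3 and 2. Its order in salivary glands and liver was not settled, with a log2 ratio of liver to salivary glands of -1.18 (-4.76 to 1.95). With only 3 libraries of 1 animal behind each distance, these are descriptions of the libraries.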

How the data were processed

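RNA of 3 tissues of 1 animal was sequenced as 1 library per tissue. The authors aligned reads with TopHat2 to the *M. javanica* genome without strand and deposited, for each gene, its length, scaffold position, count and FPKM. The paper names RSEM for FPKM. The build and the tool behind the deposited counts are not given in the sources used here. The deposited counts are whole numbers that the authors did not scale, and the deposited FPKM values are the authors' own. A further deposited column of counts times 1 factor per library was not used.

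The clock genes and the wider lists were chosen with earlier results of these data known. The Swiss-Prot symbol often names a paralog, so genes were named by their KEGG entry, and the wider and marker lists were matched by KEGG or NR entry, a choice made after the annotation was seen. The text names all clock genes, all REV-ERB, ROR, D-box, E-box repressor and TIMELESS genes, the 2 genes of each other list with the largest absolute log2 ratio in any pair, up to 3 genes per marker list by FPKM, and the nearest gene by pattern. Of these, 1 gene of the wider lists is not reported here, though the counts over the lists include it. FABP2, LCT, CDX1, ACTG2, LPO, BPIFA1 and the further entries of PRKAG2 and CREB1 were named after their values were seen.

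TMM factors came from edgeR 4.0.16 in R 4.3.3 on all genes, and were 0.851 for small intestine, 1.17 for salivary glands and 1.005 for liver. A count of 1 stood in place of 0. Genes needed at least 10 counts in 1 library of a pair, and an absolute log2 ratio of 1, the fold of the study, was the only criterion, since a q-value from the reads of 2 libraries compares those libraries and not tissues. Ratios of counts carry 95% exact binomial intervals, levels exact Poisson intervals. The ratio code was tested on simulated data. Python 3.11.15, pandas 2.3.3, numpy 2.4.6, scipy 1.17.1 and matplotlib 3.10.9 were used. Alternatives were library size alone, DESeq2 1.42.0 size factors, upper quartile factors, FPKM ratios, other count minimums, folds and call rules, and other gene sets.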

Additional observations from a re-analysis of the deposited data

How the results depend on the processing

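No paired analysis was possible because each tissue has 1 library and no replicate number. The direction of the 33 log2 ratios of clock genes (11 genes in 3 pairs) changed in 5 with library size alone and in 1 of these also from FPKM, and in none with DESeq2 or upper quartile factors. The call changed in 6, 3, 0 and 2 of the 33 under these alternatives. With an absolute log2 ratio of 2, 1 clock gene was called in each pair, and 8, 6 and 5 genes of the wider list for liver to salivary glands, liver to small intestine and salivary glands to small intestine. With the whole interval past the fold, 2 clock genes were called for liver to small intestine and 3 for salivary glands to small intestine, and 8 wider genes in the latter pair. Adding genes by Swiss-Prot symbol to the wider list gave 29 calls of 96 genes and 20 of 97 in the pairs with liver, in the order given, in place of 19 of 66 and 12 of 67. Leaving out TEF and HLF, an alternative added after seeing the data, gave 3, 3 and 4 called clock genes of 9, and Swiss-Prot symbols alone, also added later, 24, 16 and 16 wider genes. The 1 animal, the unknown hour and the gastric markers in the library labelled small intestine limit what a difference between tissues can be read as.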

Other observations

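The clock genes together took 0.137% of the counts of the small intestine library, 0.199% of the salivary gland library and 0.0981% of the liver library. Their FPKM summed to 322.8, 292.3 and 180.4, in the same order, and PER1 alone made up 38.8%, 61.8% and 52.4% of that sum.

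NAMPT, the enzyme of NAD salvage and an output of the clock, had an FPKM of 27.1 in small intestine, 21.0 in salivary glands and 151.7 in liver. NOCT, a phosphatase with strong daily rhythms in liver, had 1.50, 0.935 and 5.69. Both were named after their values were seen, and both were called higher in liver than in either other tissue, with log2 ratios for liver of 2.44 and 2.47 to salivary glands and of 2.02 and 1.84 to small intestine.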
